A study of Mus musculus with 6 samples.

Results

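Poln, the gene of DNA polymerase nu, was examined in induced germinal center B cells (iGBs) together with 7 other genes of translesion synthesis and with Haus3, a gene that shares the start of its transcripts with Poln. The members were the genes whose symbol in the raw exon count table was Poln, Haus3, Polq, Polh, Poli, Polk, Rev1, Rev3l or Mad2l2, which gave 9 of the 39017 genes of the table, and all 9 had enough counts to be tested. Poln was selected on the values of this same contrast, its higher counts in Prmt1-null than in Control iGBs, so its counts are given as a description and no test of them is reported.

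Translesion polymerases copy damaged template bases at which the replicative polymerases stall, at the cost of lower fidelity. The Y family comprises Polh, Poli, Polk and Rev1, Rev3l is the catalytic subunit of polymerase zeta with Mad2l2 (Rev7) as its accessory subunit, and Polq and Poln belong to the A family. In germinal center B cells Polh places mutations at A:T pairs and Rev1 inserts C opposite abasic sites during somatic hypermutation. Haus3 has no part in DNA synthesis and encodes a subunit of augmin, the complex that nucleates microtubules from other microtubules in the spindle.

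Control iGBs came from Cg1-cre mice and Prmt1-null iGBs from Cg1-cre mice that also carried Prmt1f/f, a floxed allele of the arginine methyltransferase gene Prmt1, all of strain C57BL6/J. Both groups thus carried the Cre, which is driven from the Cg1 locus and acts in activated B cells rather than in all cells of the mouse. Splenic B cells were activated for 3.5 days on 40LB fibroblasts, feeder cells that supply CD40L and BAFF, with IL-4 listed at 5 ng/ml in the sample labels and at a lower concentration in the methods of the study, and the feeders were then depleted with anti-H2K beads. Each group held 3 libraries, from 2 females and 1 male, and the ages of the mice were not given in the sources used here.

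Between 45343250 and 62774232 reads per library had been counted on genes. Prmt1 itself had 3941, 3901 and 4809 normalized counts in Control against 1734, 1469 and 1469 in Prmt1-null iGBs, so that 36.9% of the Control mean was still counted on the gene. Of 18268 genes tested with edgeR's quasi-likelihood test, 216 (1.18%) passed an adjusted p of 0.05 at a mean normalized count over 100, 0.58% higher and 0.602% lower, and this is the threshold behind every call below. The summed counts of 7 B cell markers ran from 349672 to 385962 over the 6 libraries, against 27.8 to 127 for 5 T cell markers. Because the libraries are from bulk RNA, fewer cells of a type and less RNA per cell cannot be told apart. Normalized counts are raw counts scaled to a common library size, values are given in the order of replicates 1, 2 and 3, and n = 3 libraries for every mean ± SD.

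Poln and Haus3 start side by side and are read in the same direction. In the GENCODE M21 annotation of GRCm38 (mm10), Poln (ENSMUSG00000045102) occupied the minus strand of chromosome 5 from 34007179 to 34169448, a locus of 162270 bp with 28 exonic blocks. Haus3 (ENSMUSG00000079555) occupied 34153880 to 34169527 on the same strand, so that 15569 bp of its 15648 bp lay inside the body of Poln. Exonic blocks were shared at 34169390 to 34169448, where the start of Poln lay within the start of Haus3, and at 34168395 to 34168443. These shared blocks came to 108 bp of the 5423 exonic bp of Poln and of the 3871 exonic bp of Haus3. The remaining 26 blocks of Poln, 5315 bp, lay beyond the 3′ end of Haus3. The longest of them, 34101699 to 34103963, made up 41.8% of the exonic bases of Poln and belonged to a transcript with a retained intron.

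**Figure D1:**
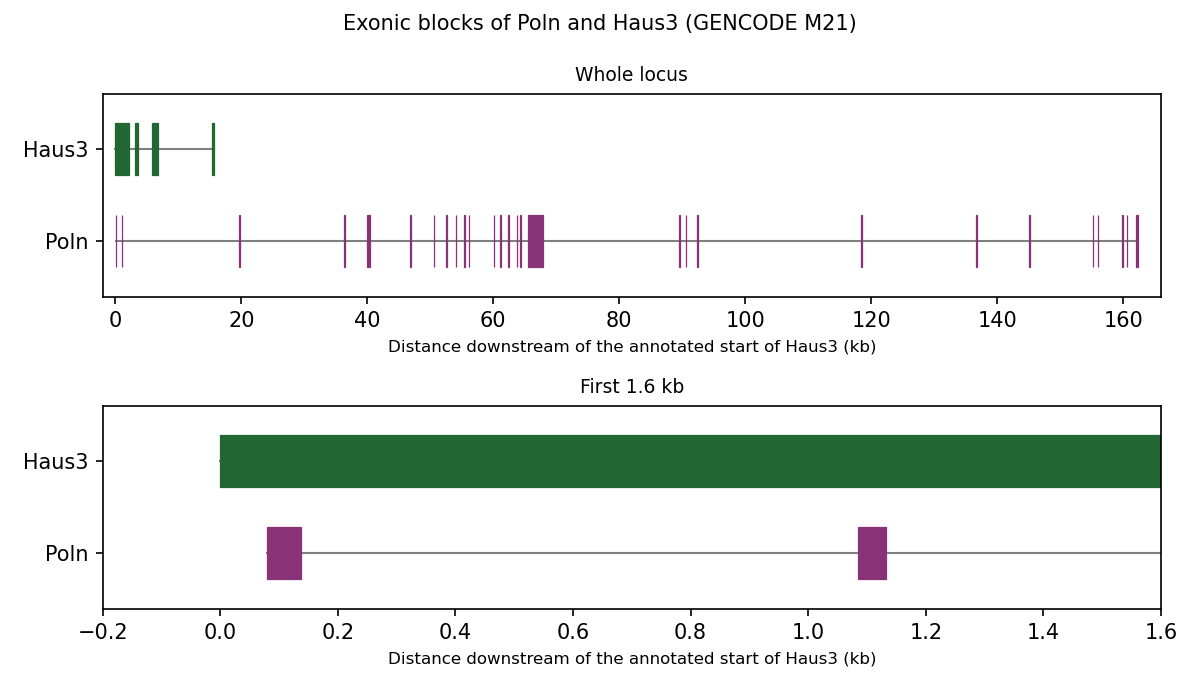
Exonic blocks of Poln and Haus3 by distance downstream of the annotated start of Haus3, in kb, over the whole locus (top) and over its start (bottom); boxes are the union of annotated exons. Of 28 Poln blocks, 26 lie to the right of the end of Haus3, and the other 2 lie within the leading Haus3 block.

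Poln was low in Control iGBs and higher in every Prmt1-null library. Raw counts were 96, 165 and 153 in Control and 490, 644 and 478 in Prmt1-null iGBs. The normalized counts were 116, 144 and 168 against 493, 590 and 449, so that the lowest Prmt1-null library stood above the highest Control library. The means were 142 ± 25.8 (SD) and 511 ± 72.1 (SD), a difference of 1.84 on the log2 scale, or 3.58-fold. In each group the library of the male mouse, Control 1 and Prmt1-null 3, had the lowest Poln count. The table gives 1 number per gene, so which of the 28 blocks carried the added reads was not analysed here.

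Haus3 was lower in every Prmt1-null library. Its normalized counts were 1601, 1690 and 1446 in Control and 1219, 1215 and 1238 in Prmt1-null iGBs, and the groups did not overlap. The means were 1579 ± 124 (SD) and 1224 ± 12.5 (SD), and the difference was −0.37 on the log2 scale (standard error 0.0935, 95% interval −0.57 to −0.17). The quasi-likelihood test gave an adjusted p of 0.0794 (edgeR, Benjamini-Hochberg), so Haus3 was not called. DESeq2 called it (adjusted p = 0.006), as did edgeR without a filter on low counts (adjusted p = 0.0263) and edgeR without Control replicate 3 (adjusted p = 0.0426).

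The counts of Poln and Haus3 added up to similar totals in both groups. Their sum was 1717, 1834 and 1613 in Control and 1712, 1805 and 1687 in Prmt1-null iGBs, and the groups overlapped. The means of the sum were 1722 ± 111 (SD) and 1735 ± 62.1 (SD). Between the group means, Poln gained 368 normalized counts, Haus3 fell by 355 and the sum differed by 13.2. These counts are not corrected for exon length. Per kb of exon not shared, the mean of Poln went from 26.8 in Control to 96.1 in Prmt1-null iGBs. That of Haus3 went from 420 to 325. When the reads of both genes were counted as 1 gene, an alternative chosen after the data had been seen, the log2 fold change was 0.011. That count holds the Poln reads behind the selection, so the value is given as a description.

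The share of Poln in the raw counts of the pair depends on no scaling between libraries. It was 6.75%, 7.85% and 10.4% in Control and 28.8%, 32.7% and 26.6% in Prmt1-null iGBs. The lowest Prmt1-null share was thus above the highest Control share, with means of 8.33% ± 1.86 (SD) and 29.4% ± 3.08 (SD). This share contains the Poln counts on which Poln was selected. Its rise follows in part from that selection and is given as a description. Divided by the exonic length each gene does not share, the mean share rose from 6.05% to 22.8%. The sources used here do not say how reads on exons of both genes were assigned or whether counting used the strand, and the part of read assignment in these values was not tested. The antisense gene 4930557J02Rik shares 113 exonic bp with Poln, and its level was not analysed here.

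**Figure D2:**
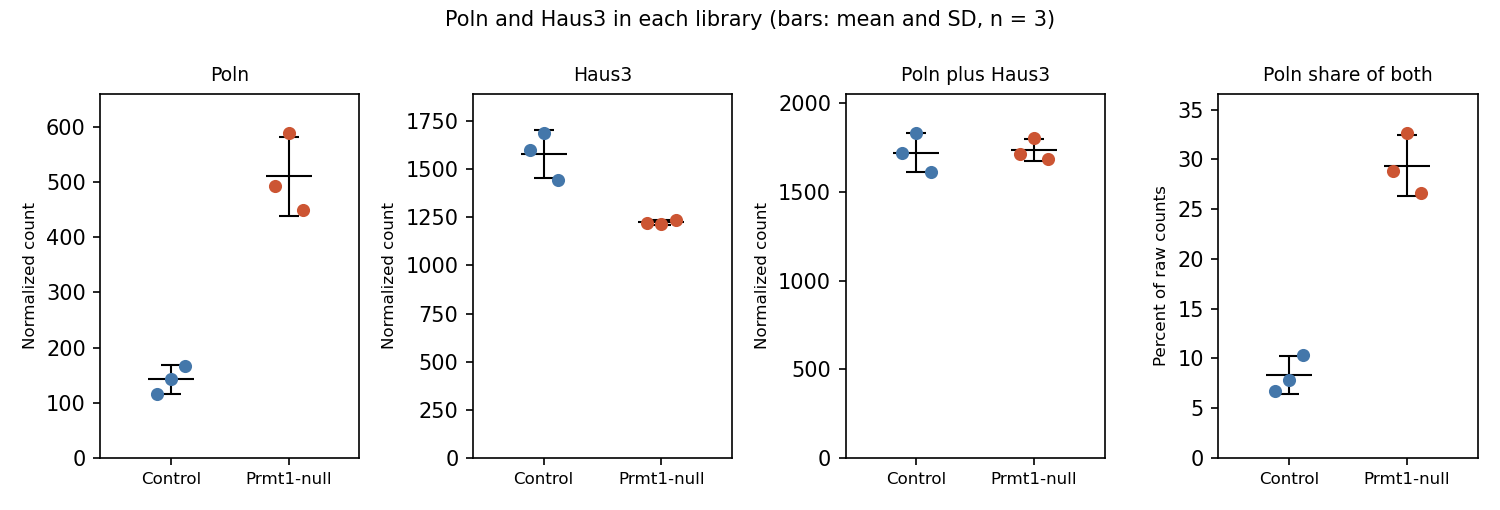
Normalized counts of Poln, of Haus3 and of their sum, and the percent of the pair's raw counts that fell on Poln, for each of 3 Control and 3 Prmt1-null libraries; points are libraries, and lines with bars are the mean and SD. Poln and its share are higher in all Prmt1-null libraries, Haus3 is lower in all, and the sums overlap at means of 1722 and 1735.

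Of the 8 members other than Poln, 0 were called by edgeR, where 1.18% of all tested genes were, and limma-voom called 0 (1.36% of all genes). DESeq2 called 1, Haus3, where it called 3.94% of all genes, and Haus3 was also the 1 member called without a filter (2.63%) and without Control replicate 3 (1.79%). None of the 8 was called with DESeq2 size factors or with no minimum mean count (1.19% of all genes in each), with sex as a covariate (1.55%), with the replicate number as a block (0.827%), without Control replicate 1 or 2 (0.678% and 0.315%) or without Prmt1-null replicate 1, 2 or 3 (0.27%, 0.166% and 0.41%). At an unadjusted p under 0.05 there were 2 of 8 (Haus3 and Rev1), where 13.5% of all genes passed, 6.5% higher and 7% lower. The same 2 genes had groups that did not overlap, against 19.9% of all genes, 9.95% higher and 9.92% lower. Among the 8, 6 log2 fold changes were below 0 and 2 above, with a median of −0.11, and the median of all tested genes was −0.000816.

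Among the Y family genes, Rev1, which inserts C opposite abasic sites and gathers the other translesion polymerases at the lesion, had the largest log2 fold change in size. Its normalized counts were 1908, 1737 and 1932 in Control and 2176, 2042 and 2235 in Prmt1-null iGBs, all higher than in Control. The means were 1859 ± 106 (SD) and 2151 ± 98.8 (SD), and the log2 fold change of 0.21 (standard error 0.0809, 95% interval 0.04 to 0.38) did not pass the threshold (edgeR adjusted p = 0.253). Rev1 shares 1643 exonic bp with Eif5b on the opposite strand, a translation factor gene whose mean normalized count was 4849 ± 440 (SD) for Control and 4855 ± 268 (SD) for Prmt1-null iGBs.

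Polh, the polymerase that reads through UV-induced thymine dimers, had 3012, 2651 and 2780 normalized counts in Control and 2571, 2584 and 2721 in Prmt1-null iGBs. The groups overlapped, and the log2 fold change was −0.10 (95% interval −0.25 to 0.05, edgeR adjusted p = 0.597). Poli, which inserts bases by an unusual pairing geometry and is error-prone opposite template T, had 956, 713 and 783 against 753, 737 and 693. Its log2 fold change of −0.17 had a 95% interval of −0.44 to 0.10. Polk, which extends from mismatched primer ends and bypasses bulky guanine adducts, had 1162, 1464 and 1231 against 1117, 1181 and 1386, with a log2 fold change of −0.07 and an interval of −0.32 to 0.18. Poli and Polk overlapped between groups as well.

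Polq, the A family relative of Poln that joins broken ends at short homologies, had 1553, 1482 and 1093 normalized counts in Control and 1202, 1275 and 1328 in Prmt1-null iGBs. The means were 1376 ± 248 (SD) and 1268 ± 63.3 (SD), and the log2 fold change was −0.12 (95% interval −0.38 to 0.15, edgeR adjusted p = 0.749). The difference in Polq was smaller than the spread of the Control libraries.

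Rev3l, the catalytic subunit of polymerase zeta, which extends the primer after another polymerase has inserted a base at the lesion, had 6998, 5529 and 5042 normalized counts in Control and 5325, 5619 and 4680 in Prmt1-null iGBs. Its log2 fold change was −0.17 (95% interval −0.39 to 0.05, edgeR adjusted p = 0.513). Mad2l2, which also acts in the shieldin complex that keeps broken DNA ends from being cut back, had 443, 531 and 541 against 525, 445 and 636. Its log2 fold change was 0.08 (95% interval −0.24 to 0.41, edgeR adjusted p = 0.858), and both subunits overlapped between the groups.

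**Figure D3:**
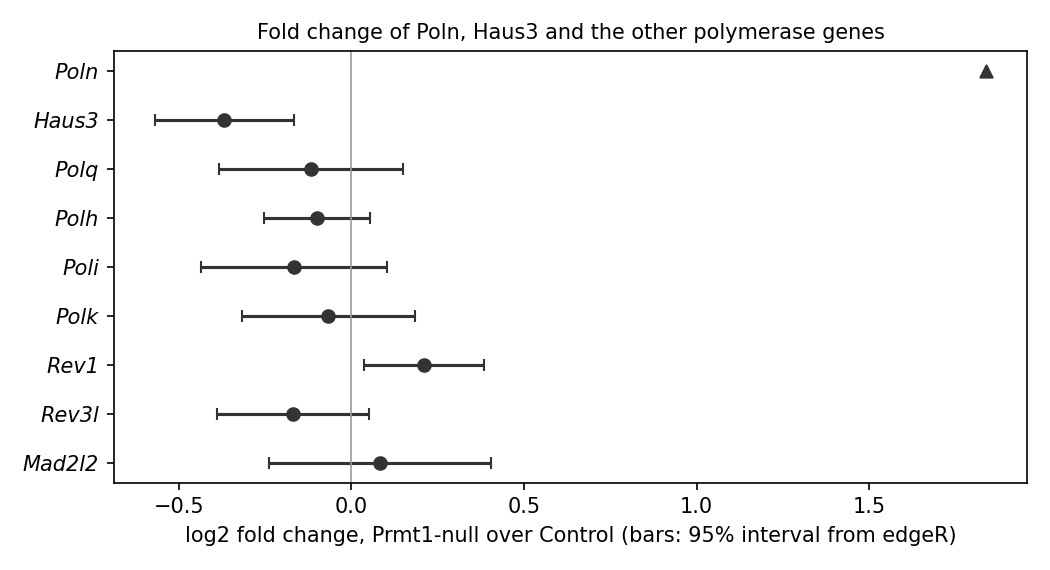
The log2 fold change of each of the 9 genes, Prmt1-null over Control, with the 95% interval from edgeR's fit on 3 against 3 libraries for the 8 genes other than Poln, a triangle drawn without one. Haus3 lies at −0.37 and Rev1 at 0.21, the intervals of the other 6 include 0, and Poln lies at 1.84 as a description.

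Per kb of exon not shared with another gene on the same strand, Poln had the lowest level of the 9 genes in both groups. In Control iGBs the mean normalized counts per kb were 473 ± 30.7 (SD) for Polh, 441 ± 76.6 for Rev3l, 420 ± 32.9 for Haus3, 301 ± 17.2 for Rev1 and 232 ± 28.6 for Polk. They were 203 ± 31.1 for Poli, 193 ± 20.5 for Mad2l2, 142 ± 25.6 for Polq and 26.8 ± 4.86 for Poln. The libraries of Polh and Rev3l overlapped, as did those of Rev3l and Haus3, Polk and Poli, and Poli and Mad2l2, so these neighbours cannot be ordered.

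In Prmt1-null iGBs the level of Poln was 96.1 ± 13.6 (SD) per kb, next to Polq at 131. The highest Poln library (111) remained below the lowest Polq library (124), a smaller gap than in Control iGBs, where the values were 31.5 and 113. Rev1 (349) stood above Haus3 (325) in Prmt1-null iGBs and below it in Control. In Prmt1-null iGBs the margin was narrow, with the lowest Rev1 library at 331 and the highest Haus3 library at 329. Polh again had the highest mean, at 441. Per kb levels rest on the union of annotated exons, which counts sequence that only some transcripts use. For Poln, 41.8% of the exonic bases are the block of the transcript with a retained intron. The place of Poln below Polq in Prmt1-null iGBs may rest on that block and was not recomputed without it.

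**Figure D4:**
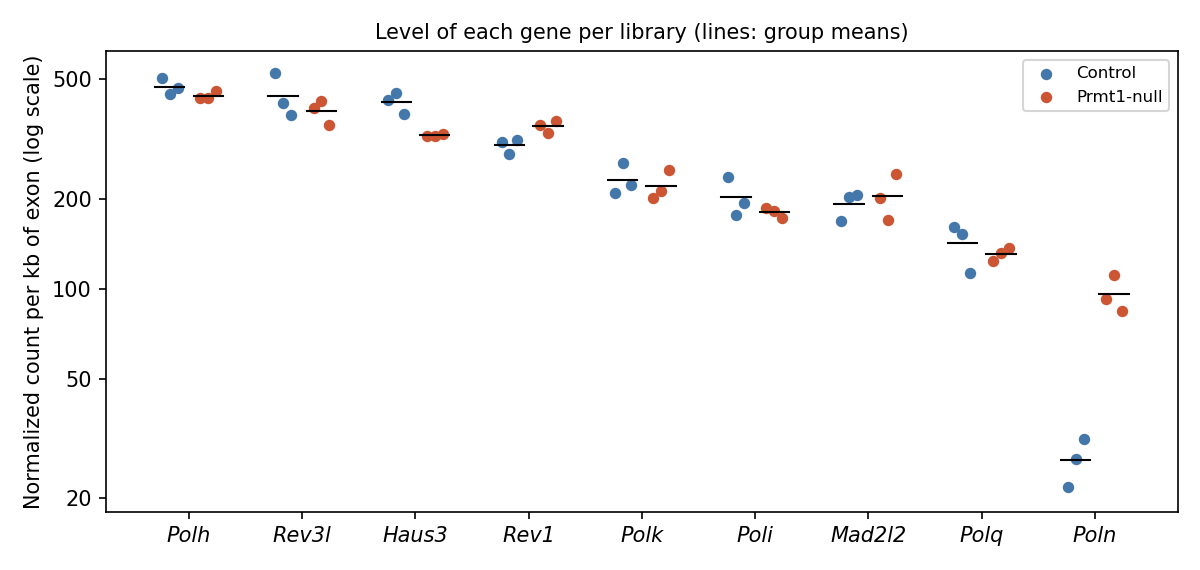
Level of each of the 9 genes in each library, as normalized counts per kb of exon on a log scale, with group means as lines (3 Control and 3 Prmt1-null libraries). On the union of annotated exons, Poln is the lowest gene in both groups, with means of 26.8 and 96.1. The other genes keep means between 131 and 473.

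Other polymerase genes were examined as a list of 19 that includes the replicative, repair and mitochondrial enzymes, of which 18 were tested and 0 were called by edgeR (DESeq2 called 2 and limma-voom 1, where they called 3.94% and 1.36% of all genes). At an unadjusted p under 0.05 there were 4, all lower in Prmt1-null iGBs, where 7% of all genes were lower at that level, and the median log2 fold change was −0.02. Pole, the leading-strand polymerase, had 11068, 10198 and 9852 normalized counts in Control and 8540, 8639 and 8781 in Prmt1-null iGBs (log2 fold change −0.26, edgeR adjusted p = 0.0569). Pola1, the catalytic subunit of the polymerase that makes primers for replication, had a log2 fold change of −0.35 (edgeR adjusted p = 0.0694). Without Control replicate 3 both passed, with adjusted p of 0.0281 for Pole and 0.00547 for Pola1. Primpol, which restarts synthesis beyond a lesion, and Pola2 had −0.24 and −0.21. Dntt, which adds untemplated bases in developing lymphocytes, was too low to be tested.

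The factors that admit translesion polymerases to the replication clamp, mainly through ubiquitin on Pcna, formed a list of 18, of which edgeR called 0 and DESeq2 3, against 1.18% and 3.94% of all genes. At an unadjusted p under 0.05, 6 were lower and 1 higher, against 7% and 6.5% of all genes, and the median was −0.06. Atad5, which unloads the clamp and guides its deubiquitination, had 5486, 4793 and 4165 normalized counts in Control and 3650, 3654 and 4051 in Prmt1-null iGBs (log2 fold change −0.35, edgeR adjusted p = 0.0784). Pclaf, a small protein that binds the clamp, had −0.27 (adjusted p = 0.088), Zranb3, a translocase that acts on stalled forks, −0.38 (adjusted p = 0.134), and Rfwd3, a ubiquitin ligase, −0.19 (adjusted p = 0.136). Without Control replicate 3, Atad5 and Pclaf passed, with adjusted p of 0.00774 and 0.0338.

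Genes that act beside Poln and Polq in crosslink repair and end joining were all 19 below 0, with log2 fold changes from −0.38 to −0.00269 and a median of −0.10. The 2 that fell past the threshold compare with 0.602% of all genes called lower. Xrcc1, the scaffold of single-strand break repair, had 2838, 3134 and 2855 normalized counts in Control and 2334, 2279 and 2188 in Prmt1-null iGBs (log2 fold change −0.38, edgeR adjusted p = 0.0241). Fancd2, the Fanconi anemia protein that is ubiquitinated at crosslinks, had 2627, 2680 and 2495 against 1986, 1950 and 2067 (log2 fold change −0.38, edgeR adjusted p = 0.0258). In both genes each Prmt1-null library was below every Control library. The call of Xrcc1 was lost without Control replicate 2 (adjusted p = 0.126) or without Prmt1-null replicate 1, 2 or 3 (0.0961, 0.121 and 0.118). That of Fancd2 was lost without Control replicate 1 or 2 (0.0575 and 0.121) or without Prmt1-null replicate 1, 2 or 3 (0.118, 0.156 and 0.0774).

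Of 13 genes of somatic hypermutation other than the polymerases, 2 fell and 0 rose past the threshold, against 0.602% and 0.58% of all genes, and the median was −0.08. Mbd4, a glycosylase that removes T and U from mismatches with G, had 5812, 5285 and 5988 normalized counts in Control and 4310, 3982 and 4440 in Prmt1-null iGBs (log2 fold change −0.42, edgeR adjusted p = 0.00801). Msh6, a mismatch recognition gene, had 3586, 3593 and 3590 against 2545, 2911 and 2945 (log2 fold change −0.36, edgeR adjusted p = 0.0283). In both genes the groups did not overlap. The call of Mbd4 was lost without Prmt1-null replicate 1 or 2 (adjusted p of 0.0614 and 0.079). That of Msh6 was lost in every fit with 1 library left out other than the one without Control replicate 3, with adjusted p of 0.0599 and 0.118 without Control replicate 1 or 2 and 0.147, 0.107 and 0.0695 without Prmt1-null replicate 1, 2 or 3.

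Of 7 partners of Rev7 in end protection, 6 were in the table, and neither edgeR nor DESeq2 called any of them, against 1.18% and 3.94% of all genes. None had an unadjusted p under 0.05, against 13.5% of all genes, and the median was −0.09. Trip13, the ATPase that remodels Rev7, had a log2 fold change of −0.18 and Rif1, a binding partner of Trp53bp1 at DNA ends, −0.12, while Trp53bp1 had 0.06 and Shld1, a shieldin subunit, −0.18. Of 9 augmin and spindle partners of Haus3, 0 were called by edgeR or DESeq2 and 0 had an unadjusted p under 0.05, beside the same shares of all genes (1.18%, 3.94% and 13.5%), with a median of −0.04. The subunit genes Haus7, Haus2, Haus4 and Haus6 had log2 fold changes of −0.31, 0.15, −0.14 and −0.08.

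**Figure D5:**
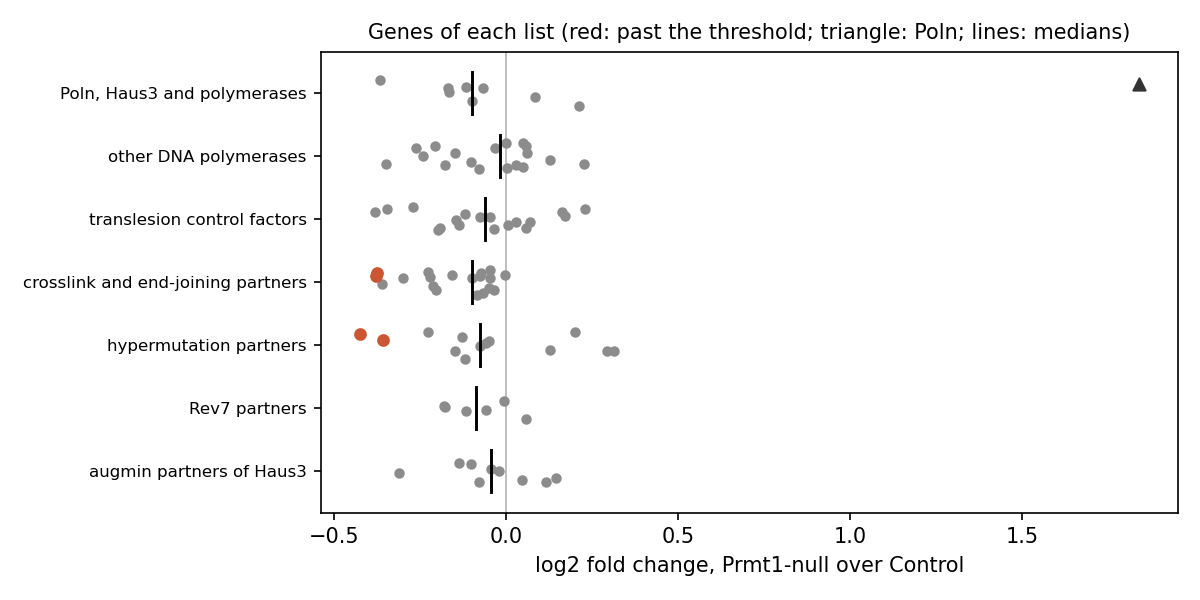
The log2 fold change, Prmt1-null over Control, of every tested gene of the 9 members and of the 6 partner lists; each point is a gene, red marks genes past the threshold, the triangle is Poln, and vertical lines are list medians. All red points (Xrcc1, Fancd2, Mbd4 and Msh6) lie below 0, and the medians of the partner lists lie between −0.10 and −0.02.

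Of 29 genes of the table within 500 kb of Poln, Poln and Haus3 themselves left out, 26 were tested and 1 was called (3.85%, against 1.18% of all genes, a share that rests on 1 gene), with a median log2 fold change of 0.04. Mxd4, a Max partner that opposes Myc, lies at 34173883 to 34187720 of chromosome 5, upstream of both genes. It had 3844, 3713 and 4414 normalized counts in Control and 3226, 3169 and 2823 in Prmt1-null iGBs, lower in every library (log2 fold change −0.38, edgeR adjusted p = 0.0358). Its call was lost whichever library was left out, with adjusted p of 0.056, 0.0718 and 0.0584 without Control replicate 1, 2 or 3 and 0.111, 0.143 and 0.162 without Prmt1-null replicate 1, 2 or 3. Gm25918, a small nuclear RNA gene that lies within Poln on the opposite strand, had means of 10.6 and 10.4 normalized counts in the groups, where the means of Poln differed by 368.

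Markers of other cells were mixed beside Poln. The sum of 6 plasma cell markers ran from 62913 to 68365 in Control and from 70316 to 76103 in Prmt1-null iGBs, with 0 of 6 called by edgeR and 2 higher at an unadjusted p under 0.05 (Xbp1 and Irf4), against 1.18% and 6.5% of all genes. Only Xbp1, a transcription factor of secretory cells, had groups that did not overlap, against 9.95% of all genes in that direction. Its log2 fold change was 0.29 (edgeR adjusted p = 0.0571). Without Xbp1 the sums overlapped, at 44591 to 49584 and 48264 to 52615. Of the 6 log2 fold changes, 5 were above 0, and the median was 0.22.

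The sum of 5 myeloid markers ran from 492 to 680 and from 838 to 859, and this separation rested on Adgre1, a macrophage surface receptor gene and the 1 called of the 4 tested, against 0.58% of all genes called higher (log2 fold change 0.73, edgeR adjusted p = 0.0319). Without Adgre1 the sums overlapped, at 193 to 289 and 203 to 308. Of the 4 tested, 3 had log2 fold changes above 0 and 1 below, with a median of 0.22. The call of Adgre1 was lost without Control replicate 1 or 2 (adjusted p of 0.0727 and 0.126) or without Prmt1-null replicate 1, 2 or 3 (0.118, 0.0941 and 0.141).

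The sum of 11 feeder fibroblast markers overlapped between the groups, at 1535 to 1786 and 1698 to 2171, with Lum and Postn at 0 in all libraries. Of the 9 tested, 8 had log2 fold changes above 0, the median was 0.28 and 0 were called by edgeR, against 1.18% of all genes. Col1a1 (0.44) and Sparc (0.64), genes of the fibroblast matrix, had an unadjusted p under 0.05 and groups that did not overlap, against 6.5% and 9.95% of all genes in that direction. The sum of 15 S phase genes overlapped as well, at 84225 to 89284 and 80212 to 88051, and 2 of them were called lower, against 0.602% of all genes: Rrm2, a subunit of ribonucleotide reductase (log2 fold change −0.30, edgeR adjusted p = 0.033), and Ccne2, cyclin E2 (−0.43, edgeR adjusted p = 0.0332). Both calls were lost in every fit with 1 library left out other than the one without Control replicate 3, with adjusted p of 0.0681 to 0.184 for Rrm2 and 0.0914 to 0.184 for Ccne2. The part of these cell types and of S phase in the values of Poln and its partners was not tested.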

How the data were processed

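RNA had been sequenced from iGBs of 3 Control and 3 Prmt1-null mice in stranded, rRNA-depleted libraries. The authors deposited raw counts for each gene, obtained by trimming reads (Trimmomatic 0.32), aligning them to mm10 (STAR 2.3.0e) and counting them on exons (featureCounts 1.4.4), with versions from the submitters' processing notes. The strand setting and the handling of reads that fall on 2 genes are not given in the sources used here.

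Counts were analysed with edgeR 4.0.16 in R 4.3.3. In all, 398 genes of chromosome Y were left out, the others were filtered by filterByExpr (minimum count 10), normalized by TMM (factors 0.985 to 1.013) and tested by the quasi-likelihood test, and p-values were Benjamini-Hochberg adjusted over all 18268 tested genes. A call needed a mean normalized count over 100 besides an adjusted p under 0.05. The biological coefficient of variation that edgeR estimated in common for all genes was 0.154. The p-values measure the spread between 3 mice per group. With 3 against 3, an exact permutation test of a single value cannot give a p under 0.1, so none was used.

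Genes were matched to GENCODE M21 by identifier (37607) or symbol (804), and 606 were unmatched. That annotation may differ from the one used for counting.

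The members and lists were chosen with earlier results of these data known. Genes named were the 9 members, in each list every gene called and otherwise up to 4 with the smallest p, of the genes within 500 kb of Poln those called or overlapping it and otherwise the 4 nearest, the 5 genes most correlated with Poln with and without the group means, and Prmt1. Pcna, Dntt, Eif5b, Ung, Apex1 and the markers of other cell types were named beside them, after their values had been seen, and 4930557J02Rik for its position alone. The sequence upstream of Poln and some genes of the lists are not reported here. Alternatives were DESeq2 1.42.0, limma-voom (limma 3.58.1), DESeq2 size factors in edgeR, no filter, no minimum mean, the replicate number as a block, sex as a covariate and each library left out. The methods were tested on simulated data. Replicate numbers are shared by the groups, but the libraries come from different mice, and numbers were not treated as pairs.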

Additional observations from a re-analysis of the deposited data

How the results depend on the processing

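The log2 fold change of Poln ran from 1.72 to 1.97 with each library left out, and its share of the pair's counts differed by 19.4 to 22.4 percentage points. It was 0.011 with Poln and Haus3 counted as 1 gene, a count that includes the reads of both. Haus3 ran from −0.43 to −0.32 with 1 library left out and was called without Control replicate 3, by DESeq2 (−0.37) and with no filter on low counts (−0.36). DESeq2 called 720 genes, 1 member other than Poln, 2 other polymerases, 3 translesion control factors, 4 hypermutation genes and 3 neighbours of Poln. With no filter the counts were 675 genes, 1 member, 2 other polymerases and 2 translesion control factors. limma-voom called 1 other polymerase. With sex as a covariate, 1 other polymerase and 2 translesion control factors were called. The cause of these differences was not tested.

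With 1 library left out, the number of genes called ran from 31 (without Prmt1-null replicate 2) to 340 (without Control replicate 3). Calls ran from 0 to 1 for members other than Poln, 0 to 2 for other polymerases, 0 to 2 for translesion control factors, 0 to 3 for crosslink and end-joining genes, 0 to 2 for hypermutation genes, 0 to 2 for S phase genes and 0 to 0 for neighbours of Poln. These fits hold fewer samples.

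The replicate numbers did not pair the libraries: the correlations of deviations from the group means were −0.263, 0.185 and −0.295 for numbers 1, 2 and 3. Control replicate 1 and Prmt1-null replicate 3, both male, had 0.438. With the replicate block 151 genes were called, Haus3 had an adjusted p of 0.156, 1 crosslink and end-joining gene was called (Fancd2 had an adjusted p of 0.056) and 0 neighbours of Poln were (Mxd4, 0.0641).

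Among the genes recomputed singly under each alternative, which leave out most list genes, those whose direction turned were not called: Gm25918 (0.83 in limma-voom, 0.44 with the replicate block, 0.26 with sex as a covariate, and −0.61 to 1.03 with 1 library left out), and, with 1 library left out, Polk (−0.16 to 0.037), Mad2l2 (−0.059 to 0.21), Trp53bp1 (−0.019 to 0.10) and Shld1 (−0.45 to 0.018). The cause was not tested. Gm25918 had group means of 10.6 and 10.4 normalized counts, and the part of its low counts was not tested.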

Other observations

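Among 13078 genes with a mean normalized count over 100, 400 (3.06%) had a Pearson r over 0.9 with Poln in log2 CPM over the 6 libraries, as a description of libraries that share the group difference. The 5 highest were Hsp90ab1, a chaperone gene (0.999), Nt5c2, a nucleotidase gene (0.998), Smim1 (0.997), Zbtb8os (0.996) and Il4i1, an amino acid oxidase gene (0.996). The r of Haus3 was −0.96 and that of Rev1 0.81, and with the group means taken out they were −0.51 and −0.37. With the group means taken out, 397 genes (3.04%) were over 0.9, and the 5 highest were Notch2 (0.999), Rmnd5b (0.999), Rnh1 (0.996), Mdh1 (0.994) and Gm20522 (0.994), none of which was among the 5 above.

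Ung, which removes uracil from DNA, was not called (log2 fold change 0.31, edgeR adjusted p = 0.23), nor was Apex1, which cuts the resulting abasic site (0.29, edgeR adjusted p = 0.0569), which DESeq2 called (adjusted p = 0.00713). Both genes were higher in every Prmt1-null library than in any Control library, where 9.95% of all tested genes were. They were chosen after their values had been seen.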
